A study of Mus musculus with 2 samples.

Results

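Endocardial endothelial nuclei were examined in single-nucleus RNA sequencing (snRNA-seq) of mouse hearts. A nucleus was counted as endocardial when at most 20% of its unique molecular identifiers (UMIs, one for each captured transcript molecule) came from mitochondrial genes and when its UMIs of Npr3, Nrg1, Plvap, Smoc1, Sall1 and Bmx summed to at least 3. This sum also had to exceed the sum of capillary genes (Aplnr, Timp4, Tcf15, C1qtnf9, Btnl9), of lymphatic genes (Mmrn1, Reln, Flt4), of fibroblast genes (Pdgfra, Col1a1, Col3a1, Dcn) and of macrophage genes (Mrc1, F13a1, Cd163), and the valve genes Wnt9b and Hapln1 had to sum to under 2. The rule found 2030 nuclei among 18164 barcodes, 977 of 10197 in the control group and 1053 of 7967 in the PD-1 inhibitor group. Since the rule reads the counts themselves, the levels of its genes describe the selection and are not results.

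Each group was 1 library of nuclei from whole hearts of male C57BL/6 mice that were 8 weeks old when treatment began. The PD-1 inhibitor group received an anti-mouse PD-1 antibody intraperitoneally at 5 mg/kg on days 1 and 14 of a cycle of 28 days, and the control group received PBS on the same days. The labels give no genetic change in either group, and the number of hearts in a library is not stated. With 1 library per group no test was possible, so every interval given is a 95% interval for counting error only and says nothing of the spread between animals.

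The endocardium is the endothelial sheet that lines the chambers of the heart and faces the blood directly. It supplies the myocardium with signals such as neuregulin-1 and endothelin-1, is marked by the transcription factor NFATC1 during development, and gives rise to part of the valves. The capillary endothelium within the muscle, in contrast, takes up fatty acids for the cardiomyocytes.

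After the limit on mitochondrial UMIs, 10114 control and 7952 PD-1 inhibitor nuclei remained. Endocardial nuclei made up 9.66% (exact Clopper-Pearson 95% interval 9.09 to 10.3) of the control library and 13.2% (12.5 to 14.0) of the PD-1 inhibitor library, a ratio of 1.37 (1.26 to 1.497). Among the nuclei that met any of 4 endothelial rules (endocardial, capillary, lymphatic and valve), their share was 68.5% (66.0 to 70.9) of 1426 in the control group and 74.7% (72.3 to 76.9) of 1410 in the PD-1 inhibitor group. This is not their share of all endothelial nuclei. No rule was made for arterial nuclei, and endothelial nuclei with too few UMIs of a rule's genes met none of the rules. The other endothelial rules gave ratios whose intervals included 1. Capillary-rule nuclei numbered 203 and 187 (ratio 1.17, 0.955 to 1.44), lymphatic-rule nuclei 205 and 143 (0.887, 0.712 to 1.10) and valve-rule nuclei 41 and 27 (0.838, 0.496 to 1.40). In whole-tissue nuclei, more nuclei of a type and better recovery of that type cannot be told apart with 1 library per group. The endocardial nuclei were equally deep in both groups, with a median of 1040 and 1055 UMIs and 679 genes in both, and they held 1213711 and 1318125 UMIs in all. Of 48 barcodes found in both libraries, 0 belonged to endocardial nuclei of both.

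Npr3, the clearance receptor for natriuretic peptides, carried the rule. It gave 3937 of the rule's UMIs in the control group and 4862 in the PD-1 inhibitor group (47.7% and 49.0%), and it was detected in 87.3% and 91.2% of the nuclei. Plvap, which forms the diaphragms of fenestrae and caveolae, was detected in 61.6% and 66.1%, and Bmx, a Tec-family tyrosine kinase, in 40.5% and 42.6%. Smoc1, a matricellular modulator of BMP signals, was found in 38.8% and 38.7%, Nrg1, the ligand of ERBB receptors, in 30.5% and 32.3%, and the zinc-finger factor Sall1 in 12.3% and 12.4%. The median nucleus had a sum of 7 UMIs in the control group and 8 in the PD-1 inhibitor group. Only 1 of the 6 markers was detected in 122 control and 103 PD-1 inhibitor nuclei. Just inside the threshold, at a sum of 3, lay 143 and 103 nuclei, in which the endocardial genes outside the rule summed to 9988 and 12420 CPM (UMIs per 1000000 UMIs of the set). Just outside, at a sum of 2, lay 130 and 118 nuclei, in which these genes summed to 8299 and 8924 CPM, and in nuclei with a sum of 6 or more they were at 18120 and 18520 CPM. These neighbours are part of all other nuclei in the comparisons that follow.

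**Figure D1:**
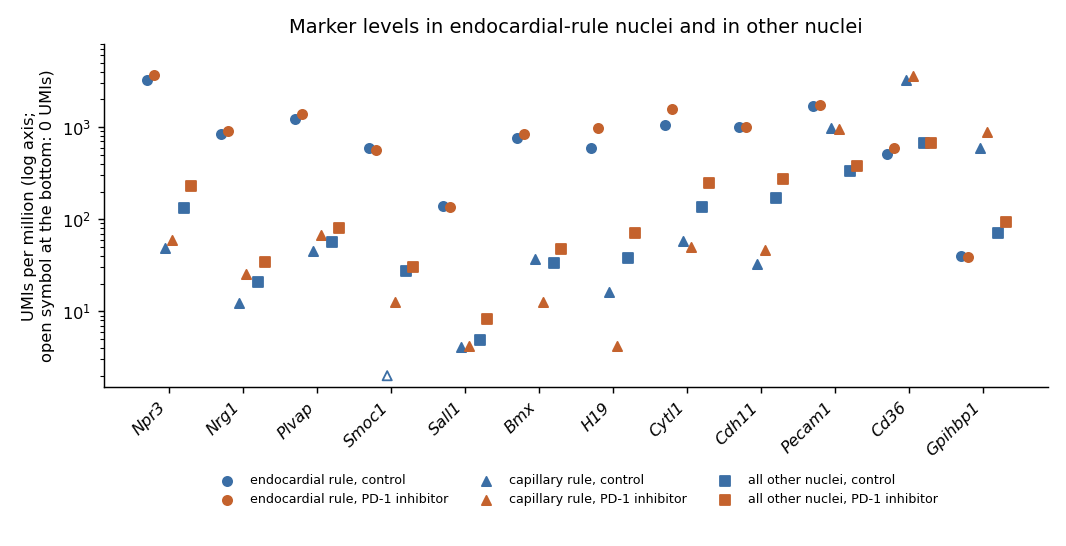
CPM on a log axis for the 6 rule genes, H19, 3 other endocardial or endothelial genes (Cytl1, Cdh11, Pecam1) and 2 capillary genes (Cd36, Gpihbp1), in endocardial-rule nuclei (circles), capillary-rule nuclei (triangles) and all other nuclei (squares) of the control group (blue) and the PD-1 inhibitor group (orange). In both groups H19, Cytl1 and Cdh11 lay higher in endocardial-rule nuclei than in both other sets, and Cd36 and Gpihbp1 lay highest in capillary-rule nuclei. The open symbol at the bottom stands for 0 UMIs of Smoc1 in capillary-rule nuclei of the control group.

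The label was set beside 21 endocardial genes that the rule did not use. This list was chosen with earlier results of these data known, so it is no independent check. Compared with capillary-rule nuclei, 16 of the 20 with at least 100 UMIs were over 2-fold higher in both groups and 0 were over 2-fold lower. Over all 6608 genes with that many UMIs, 7.69% were higher and 5.18% were lower by this measure. Compared with all other nuclei, 17 of the 21 were over 2-fold higher and 1 was lower, where 3.78% of 13101 genes were higher and 14% lower. The 4 that did not pass against capillary-rule nuclei were Nfatc1, Tal1, Mecom and Emcn, and the 1 that was lower than in all other nuclei was Tbx20, a factor that cardiomyocytes also use. Emcn, the sialomucin endomucin, had 1523 and 1449 CPM in endocardial nuclei and 1324 and 934 in capillary-rule nuclei. Because both sets were chosen on counts of the same nuclei, these ratios are descriptions.

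H19, an imprinted long noncoding RNA on chromosome 7 (142575529 to 142578143, minus strand, GRCm38), was given as a marker of these nuclei but is not part of the sum. It had 725 UMIs in control endocardial nuclei and 1287 in PD-1 inhibitor endocardial nuclei, against 4 and 1 in capillary-rule nuclei. Its log2 ratio to capillary-rule nuclei was 5.02 (3.82 to 7.07) in the control group and 7.27 (5.38 to 13.2) in the PD-1 inhibitor group. A UMI of H19 was found in 24.5% (21.8 to 27.3) of control and 31.0% (28.2 to 33.9) of PD-1 inhibitor endocardial nuclei, and in 2 of 203 and 1 of 187 capillary-rule nuclei of like median depth. After each nucleus was thinned to 500 UMIs the shares of endocardial nuclei were 16.7% and 22.7%. Plagl1, an imprinted zinc-finger factor, followed the same pattern, with 559 and 768 UMIs in endocardial nuclei and 5 and 2 in capillary-rule nuclei.

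The 10 genes outside the rule that stood highest over capillary-rule nuclei were of several kinds. Ahsg, which encodes the plasma protein fetuin-A, had 505 and 483 CPM in endocardial nuclei and 12.3 and 4.21 in capillary-rule nuclei, a log2 ratio of 5.14 (3.81 to 7.64) and 6.26 (4.36 to 12.2). Rasgef1b, a guanine nucleotide exchange factor gene, had log2 ratios of 5.06 (3.86 to 7.10) and 5.58 (4.05 to 8.95). The adhesion gene Cdh11, which encodes cadherin-11, had 1015 and 1016 CPM against 32.8 and 46.3. A further group had no UMI in capillary-rule nuclei of either group, so only a bound can be given, set at 3 counts per library. The protease inhibitor gene A2m was at least 5.49-fold higher in the control group and at least 5.23-fold in the PD-1 inhibitor group. For Glp1r, the receptor of glucagon-like peptide 1, the bounds were 5.49-fold and 3.91-fold, for the alcohol dehydrogenase gene Adh6b 3.95-fold and 7.33-fold, and for the tight junction gene Ocln 3.75-fold and 4.45-fold. Nalcn, a sodium leak channel, and B4galt6, a lactosylceramide synthase, completed the 10 highest.

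At the other end stood genes of the capillary programme. Slc28a2, a nucleoside transporter, had 28.0 and 22.8 CPM in endocardial nuclei and 955 and 707 in capillary-rule nuclei, a log2 ratio of -5.07 (-5.66 to -4.57) and -4.94 (-5.57 to -4.39). Gm12002, Rgcc, Pcdh17 and Dach1 were the next lowest. Of 12 capillary genes outside the rule that had at least 100 UMIs, 11 were over 2-fold lower in endocardial nuclei and 1 was higher. Of all 6608 genes 5.18% were lower and 7.69% higher. Those that were lower included the fatty acid carriers Cd36, with log2 ratios of -2.69 (-2.84 to -2.53) and -2.61 (-2.75 to -2.47), and Fabp4, with -2.46 (-2.60 to -2.31) and -3.27 (-3.40 to -3.14). The exception was another fatty acid binding protein gene, Fabp5, which had 455 and 685 CPM in endocardial nuclei and log2 ratios of 2.07 and 1.87. Of 18 pan-endothelial genes 8 were lower than in capillary-rule nuclei and 0 were higher, among them Kdr, the main VEGF receptor, at -2.30 (-2.55 to -2.04) and -2.09 (-2.33 to -1.84).

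**Figure D2:**
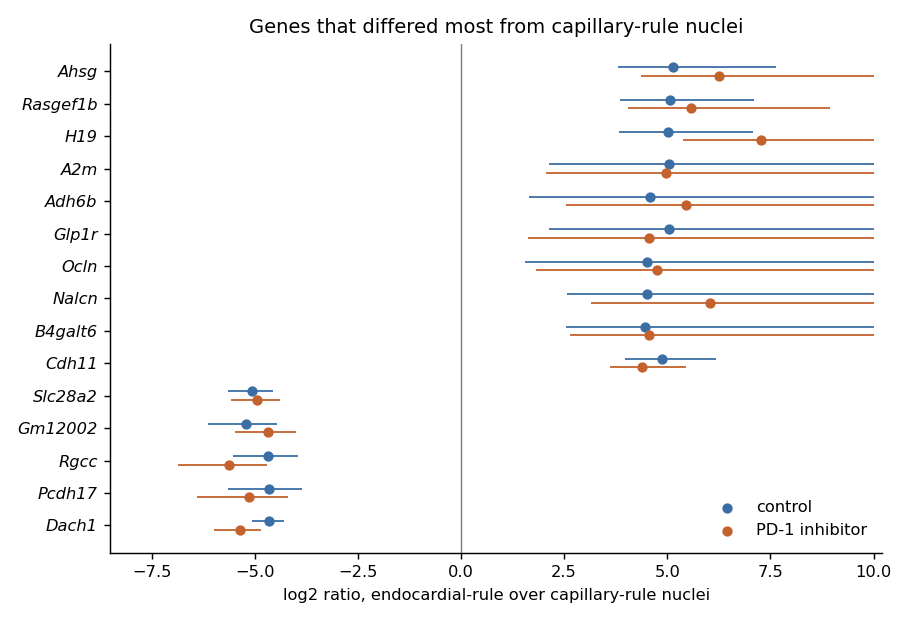
Log2 ratio of endocardial-rule over capillary-rule nuclei for the 10 highest and 5 lowest genes outside the rule, in the control group (blue) and the PD-1 inhibitor group (orange), with 95% counting intervals as lines. Lines that end at 10 run further or have no upper bound, because capillary-rule nuclei held 0 or few UMIs, and there the points depend on the 0.5 UMI added. Every point lay on the same side of 0 in both groups, from 4.39 to 7.27 for the highest genes and from -5.62 to -4.65 for the lowest.

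Measured against all other nuclei, the highest genes were H19, at a log2 ratio of 3.96 and 3.78, and Plagl1, at 3.83 and 3.87. Next came Adh6b, Sost, which encodes the WNT inhibitor sclerostin, Ocln, Gm30648, Glp1r, the ribosomal S6 kinase gene Rps6ka2, Enpp6, and the hyaluronidase gene Cemip2. Sost had 118 and 160 UMIs, or 97.2 and 121 CPM, against 8.24 and 7.88 CPM in all other nuclei.

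Receptors and ligands of the endocardium were then taken by pathway. Their counts against capillary-rule nuclei are to be read beside all 6608 genes, of which 7.69% were higher and 5.18% lower. Of 25 genes of the TGF-beta, activin and BMP pathway, 13 were over 2-fold higher than in capillary-rule nuclei and 2 were lower. The higher ones included the receptor gene Bmpr1a, with log2 ratios of 3.09 (2.13 to 4.52) and 2.51 (1.68 to 3.65), the inhibitory Smad6, with 2.50 (1.78 to 3.43) and 2.27 (1.65 to 3.05), and the target gene Id2, with 3.66 (2.76 to 4.97) and 3.31 (2.60 to 4.23). Of 14 natriuretic, endothelin and vasoactive genes 6 were higher and 0 were lower, and the 6 include Npr3, which the rule reads. The endothelin-1 gene Edn1, its converting enzyme Ece1 and the endothelin receptor gene Ednrb were all among them, with log2 ratios of 2.40, 2.37 and 2.22 in the control group and 3.11, 2.46 and 4.00 in the PD-1 inhibitor group. Of 23 transcription factors of the endocardial list 10 were higher and 3 lower, and the 10 include Sall1, which the rule reads. Foxc1, a forkhead factor, had log2 ratios of 3.43 (2.47 to 4.85) and 3.38 (2.52 to 4.60), and Gata4 had 2.75 (1.84 to 4.07) and 1.71 (1.00 to 2.61).

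Genes of the vessel wall that meets the blood were also taken. Here too the counts are to be read beside all 6608 genes, of which 7.69% were higher and 5.18% lower. Vwf, the von Willebrand factor gene that binds platelets at an injured wall, had 1993 and 2557 UMIs in endocardial nuclei, and its level was above that of capillary-rule nuclei by a log2 ratio of 3.42 (2.97 to 3.95) and 4.18 (3.64 to 4.84). Of 7 haemostasis genes with enough UMIs 3 were higher and 0 lower. Ptgs1, which encodes cyclooxygenase-1, was at 1.89 (1.35 to 2.54) and 2.38 (1.79 to 3.12), and Tfpi, the inhibitor of the tissue factor pathway, at 1.93 (1.18 to 2.91) and 1.47 (0.88 to 2.19). Thbd, the thrombomodulin gene, was level with capillary-rule nuclei, at 0.01 (-0.30 to 0.34) and 0.23 (-0.08 to 0.56). Of 5 venous genes 3 were higher, among them the adhesion molecule gene Vcam1, at 2.24 (1.78 to 2.77) and 2.67 (2.15 to 3.29). Of 7 arterial genes 1 was higher, Gja4, at 1.77 (0.84 to 3.09) and 3.04 (1.68 to 5.55), and 1 was lower, the chemokine gene Cxcl12, at -4.45 (-4.97 to -3.98) and -3.90 (-4.35 to -3.48).

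The basement membrane was divided by chain. Col4a3 and Col4a4, which encode the alpha 3 and alpha 4 chains of collagen IV, were higher in endocardial nuclei, with log2 ratios of 4.86 (3.32 to 8.24) and 4.31 (3.30 to 5.88) in the control group and 4.32 (2.99 to 6.83) and 5.07 (3.74 to 7.58) in the PD-1 inhibitor group. The common chains Col4a1 and Col4a2 were lower, at -1.64 and -2.71 in the control group and -1.68 and -2.55 in the PD-1 inhibitor group. Of the 23 matrix genes with enough UMIs 4 were higher and 5 lower, where 7.69% of all 6608 genes were higher and 5.18% lower.

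The endocardial nuclei were not all alike. Among those without an Npr3 UMI (124 control and 93 PD-1 inhibitor nuclei) H19 stood at 163 (110 to 233) and 232 (155 to 333) CPM, against 675 (626 to 727) and 1055 (997 to 1115) in those with Npr3. Plagl1, Ahsg and Cdh11 were lower in the same nuclei. The arterial genes Sema3g, which encodes a semaphorin, Gja5, which encodes connexin 40, and Fbln5, which encodes the elastic fibre protein fibulin-5, were higher in them. Nuclei without Npr3 met the rule through its other markers, Bmx among them, so this split depends on the selection. Control Sema3g had 13 UMIs in the 396 nuclei with Bmx and 0 in the 581 without. In the control group the whole arterial list summed to 2014 (1814 to 2230) CPM without Npr3 and 1541 (1466 to 1618) with it. Sema3g had 10 UMIs in the 124 control nuclei without Npr3 and 3 in the 853 with it, and 18 in 93 against 2 in 960 in the PD-1 inhibitor group. Gja5 had 54.3 (26.03 to 99.8) against 12.6 (6.72 to 21.6) CPM in the control group and 144 (85.2 to 227) against 5.87 (2.36 to 12.1) in the PD-1 inhibitor group. Inhba, which encodes a subunit of activin A, also differed, with 168 and 487 CPM without Npr3 and 70.9 and 78.8 with it. Median depth was 1122.5 and 1077 UMIs without Npr3 and 1035 and 1051 with it. The endocardial genes outside the rule still summed to 11960 and 16140 CPM in the nuclei without Npr3, against 17040 and 17890 with it and 4592 and 3603 in capillary-rule nuclei. Cytl1 was higher without Npr3, at 1379 and 3018 CPM against 986 and 1413. These levels are sums over all nuclei without Npr3. Whether the same nuclei held both the endocardial and the arterial transcripts was not tested.

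**Figure D3:**
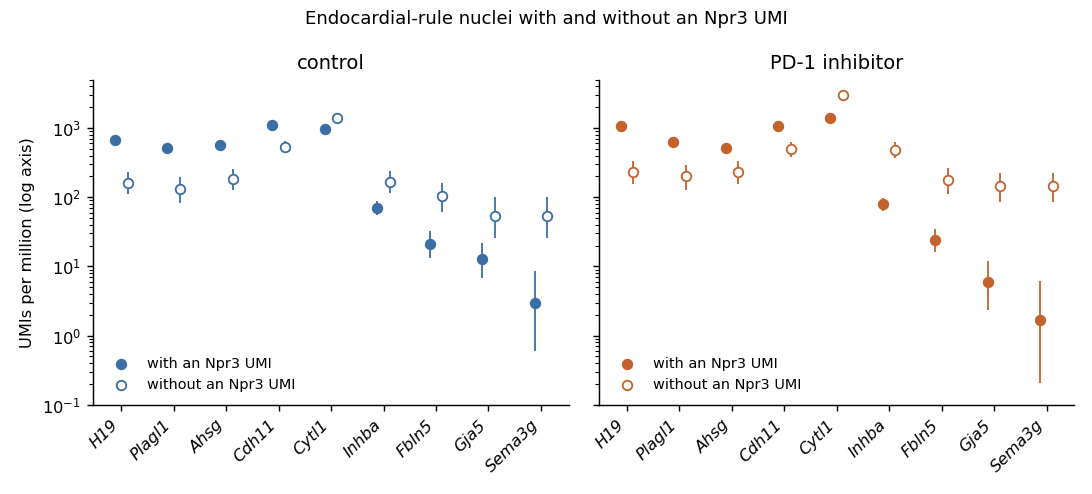
CPM on a log axis for 9 genes in endocardial-rule nuclei with an Npr3 UMI (filled) and without (open), in the control group (left) and the PD-1 inhibitor group (right), with 95% Poisson intervals as lines. In both groups H19, Plagl1, Ahsg and Cdh11 were lower and Inhba, Fbln5, Gja5 and Sema3g higher in the nuclei without Npr3.

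Transcripts of other cell types were present in the endocardial nuclei. The median nucleus held 9 and 8 UMIs of the pan-endothelial list, and 21 control and 14 PD-1 inhibitor nuclei held none. The summed level of cardiomyocyte markers was 4768 and 5947 CPM (18170 and 19240 in all other nuclei), with 0 of 10 markers at 0, and that of fibroblast markers was 2701 and 3437 (10870 and 14100 in all other nuclei). In 271 control (27.7%) and 369 PD-1 inhibitor nuclei (35.0%) the pan-endothelial list did not exceed every other cell type's list. Without these nuclei the ratio of endocardial shares was 1.23. Adipocyte markers reached 3 UMIs in 10 control nuclei and 1 PD-1 inhibitor nucleus, and their summed level was 188 and 31.1 CPM. Scrublet called 54 and 34 endocardial nuclei as doublets. The part of these transcripts in the results was not tested.

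PD-1 inhibitor over control was computed within the endocardial nuclei for 5830 genes with at least 100 UMIs in both groups together. The PD-1 inhibitor level was over 1.5-fold higher for 313 genes (5.37%) and over 1.5-fold lower for 260 (4.46%), and the median log2 ratio over all of them was -0.02. In all other nuclei the same measure held for 2.16% and 1.32% of 5828 genes, from 11770469 and 9516445 UMIs in all. When only the 705 control and 684 PD-1 inhibitor nuclei with more pan-endothelial UMIs than of each other type were kept, 162 genes were lower. Fewer genes can reach 100 UMIs in these nuclei, so this count is not to be set against the 260. The 6 rule markers differed little, with log2 ratios from -0.07 (-0.22 to 0.08) for Smoc1 to 0.19 (0.12 to 0.25) for Npr3.

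The lowest ratios were those of immediate early genes, which are transcribed within minutes of a stimulus and encode mostly transcription factors. Fos, a subunit of AP-1 (chromosome 12, 85473890 to 85477273, plus strand, GRCm38), had 479 UMIs in control endocardial nuclei and 33 in PD-1 inhibitor endocardial nuclei. Its log2 ratio was -3.96 (-4.53 to -3.47). Egr1, a zinc-finger factor, had 354 and 25 UMIs, and its log2 ratio was -3.92 (-4.59 to -3.36). Ccn1, which encodes a secreted matricellular protein (chromosome 3, 145646976 to 145649981, minus strand), had 945 and 111 UMIs, and its log2 ratio was -3.20 (-3.51 to -2.92). The orphan nuclear receptor gene Nr4a1 had 212 and 41 UMIs, at -2.48 (-3.01 to -2.0), and the AP-1 gene Junb had 388 and 105, at -2.0 (-2.33 to -1.69). Under the 21 alternatives in which it had a value, the ratio of Fos ran from -4.41 to -3.81, that of Egr1 from -4.89 to -3.66 and that of Ccn1 from -3.42 to -3.18.

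Of the 25 genes of the immediate early list 17 had at least 100 UMIs in endocardial nuclei, and of these 10 were over 1.5-fold lower in the PD-1 inhibitor group and 0 higher, where 4.46% of all genes were lower. The other 5 were Zfp36, which destabilizes mRNA, at -1.90 (-2.30 to -1.53), the phosphatase gene Dusp1 at -1.72 (-2.0 to -1.46), Btg2 at -1.12 (-1.51 to -0.76), Ier2 at -0.98 (-1.24 to -0.72) and Jun at -0.87 (-1.14 to -0.61). Jund, at -0.01 (-0.31 to 0.29), and Ier5, at 0.18 (-0.37 to 0.74), did not pass. The flow-responsive factors Klf2 and Klf4 had 1100 and 381 UMIs in the control group and 876 and 288 in the PD-1 inhibitor group, log2 ratios of -0.45 (-0.58 to -0.32) and -0.52 (-0.75 to -0.30) that did not reach the fold. The list's median was -0.98 in endocardial nuclei and -0.44 in all other nuclei for the same genes.

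Immediate early genes were also lower in all other nuclei, but the sizes differed. Egr1 had a log2 ratio of -1.95 (-2.12 to -1.79) there, Ccn1 -1.58 (-1.71 to -1.46), Junb -1.17 (-1.31 to -1.04) and Fos -3.25 (-3.51 to -3.01). For Jun, the log2 ratio was -0.02 (-0.13 to 0.08) in all other nuclei, and for Klf2 it was 0.16 (0.10 to 0.22). The counting intervals of 12 of the 17 genes, Egr1, Ccn1, Nr4a1, Junb, Jun, Zfp36, Dusp1, Btg2, Klf2, Klf4, Klf6 and Ccn2, lay wholly below those in all other nuclei, which held for 4.22% of 5828 genes (7.46% did not overlap in either direction), and those of Fos met only near -3.5. In the control group these transcripts stood above all other nuclei, at 779 against 219 CPM for Ccn1 and 292 against 151 for Egr1. In the PD-1 inhibitor group Ccn1 was at 84.2 against 73.0 and Egr1 at 18.97 against 38.9. The endothelial sets most like these nuclei had few UMIs but were also lower for part of the list. In capillary-rule nuclei the log2 ratio was -2.0 (-4.15 to -0.53) for Fos, -1.5 (-2.68 to -0.53) for Ccn1 and -0.70 (-1.54 to 0.09) for Egr1. In lymphatic-rule nuclei it was -2.26 (-4.38 to -0.88) for Fos, -2.19 (-3.16 to -1.40) for Ccn1, -0.61 (-1.84 to 0.46) for Egr1 and -2.05 (-4.64 to -0.45) for Nr4a1. Other genes of the list were higher, among them Klf2 in capillary-rule nuclei, at 0.78 (0.49 to 1.09), and Klf6 in lymphatic-rule nuclei, at 1.11 (0.61 to 1.64).

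The difference was spread over many nuclei. At least 1 UMI of Fos, Egr1 or Ccn1 was found in 345 of 977 control endocardial nuclei (35.3%) and in 94 of 1053 in the PD-1 inhibitor group (8.93%). At least 3 UMIs were found in 172 (17.6%) and 16 (1.52%). In all other nuclei the shares with at least 1 UMI were 22.4% and 9.41%. With 1 library per group, the treatment and the library cannot be told apart.

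**Figure D4:**
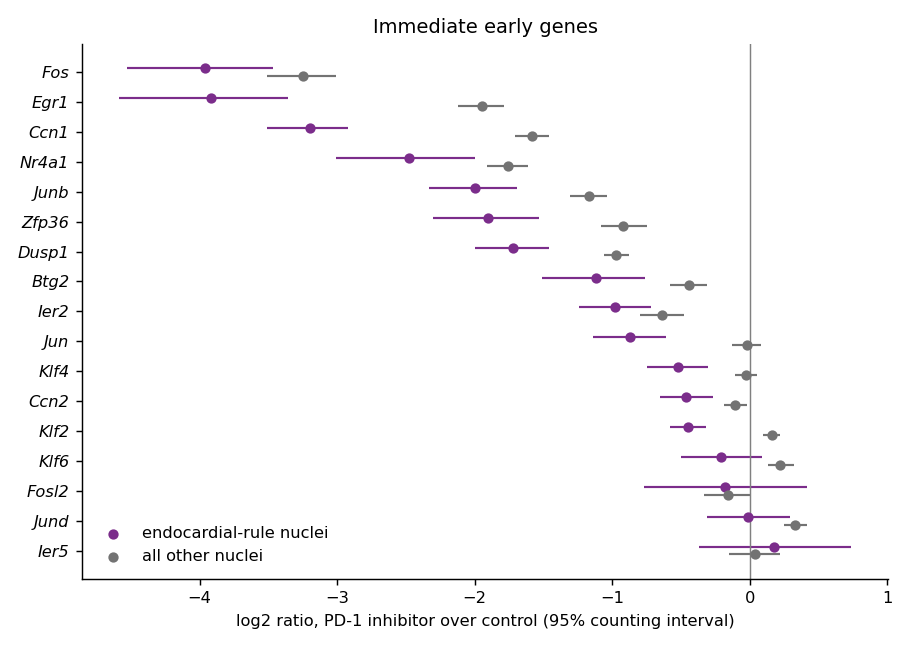
Log2 ratio of PD-1 inhibitor over control for the 17 immediate early genes with at least 100 UMIs in endocardial-rule nuclei (purple) and in all other nuclei (grey), with 95% counting intervals as lines. Fos, Egr1 and Ccn1 lay between -3.96 and -3.20 in endocardial-rule nuclei, and for most genes the purple point lay left of the grey one.

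The letters before the start sites of the whole immediate early list, called genes or not, were read for motifs of factors known to drive immediate early transcription. Of the 25 genes 20 had a RefSeq window of 250 bases before the start site on GRCm38.p6. The core of the cAMP response element, TGACG on either strand, was present in 13 of the 20 (65%), where 19.8% of 27018 genes had it in at least 1 such window. The full element TGACGTCA, which contains that core on both strands, was in 2 of the 20 (1.77% of all genes). The CArG box bound by serum response factor was in 2 of the 20 (10%), against 1.62% of all genes, and the AP-1 site TGANTCA in 0, against 7.82%. Of the 5 immediate early genes among the 10 lowest ratios, the windows of 4 are shown with every TGACG or its reverse complement CGTCA in capitals. The fifth, Egr1, was not among the 20 genes with a window, so its letters were not read. Fos, chr12:85473640-85473889, plus strand, holds 2 matches. Ccn1, chr3:145649986-145650235, minus strand, and Junb, chr8:84978749-84978998, minus strand, hold 1 each. Nr4a1, chr15:101266596-101266845, plus strand, holds 4, and its window lies inside the gene's annotated span, which includes longer transcripts. A match is a description of letters and was not tested as a binding site.
Fos: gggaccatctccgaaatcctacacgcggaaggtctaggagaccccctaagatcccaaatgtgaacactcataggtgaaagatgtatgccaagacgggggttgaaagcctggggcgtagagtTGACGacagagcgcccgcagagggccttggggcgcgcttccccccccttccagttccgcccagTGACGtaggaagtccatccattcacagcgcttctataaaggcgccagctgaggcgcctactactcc
Ccn1: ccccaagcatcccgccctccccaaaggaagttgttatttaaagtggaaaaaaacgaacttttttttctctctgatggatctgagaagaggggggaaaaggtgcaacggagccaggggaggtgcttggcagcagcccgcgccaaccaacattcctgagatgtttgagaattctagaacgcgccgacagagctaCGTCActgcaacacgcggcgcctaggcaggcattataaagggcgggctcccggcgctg
Nr4a1: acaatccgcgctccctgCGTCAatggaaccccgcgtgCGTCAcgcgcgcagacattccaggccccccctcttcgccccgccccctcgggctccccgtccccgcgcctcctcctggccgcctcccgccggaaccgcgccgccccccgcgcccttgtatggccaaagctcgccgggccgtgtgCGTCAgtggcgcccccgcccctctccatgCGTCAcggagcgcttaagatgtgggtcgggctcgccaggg
Junb: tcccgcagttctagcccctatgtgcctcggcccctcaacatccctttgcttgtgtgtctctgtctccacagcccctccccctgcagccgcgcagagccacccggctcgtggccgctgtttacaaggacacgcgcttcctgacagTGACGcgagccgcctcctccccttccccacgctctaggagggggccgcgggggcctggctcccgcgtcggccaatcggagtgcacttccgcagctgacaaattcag

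The remaining low ratios had other shapes. Scd1, a fatty acid desaturase gene, had 191 and 41 UMIs, and its log2 ratio was -2.33 (-2.86 to -1.85), and Pdk4, a kinase that restrains glucose oxidation, had 99 and 24, at -2.14 (-2.87 to -1.51). The 10 control nuclei with at least 3 adipocyte marker UMIs held 73.8% of the control UMIs of Scd1, 77.8% of those of Pdk4 and 75.8% of those of the adipocyte regulator Pparg. Without those nuclei Scd1 had 50 and 18 UMIs and Pdk4 22 and 15, too few for the minimum of 100. The noncoding 4933406I18Rik, at -2.03 (-2.60 to -1.52), had 54.9% of its control UMIs in the same 10 nuclei. For Pdzrn4, at -2.05 (-2.77 to -1.43), 60 of 97 control UMIs lay in 1 nucleus, and without the highest nucleus of each group its log2 ratio was -0.92. Gm47283, at -2.45 (-3.13 to -1.87), lies on chromosome Y in the pseudoautosomal region that X shares, so its count is uncertain.

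Among the highest ratios, Adh1 was the most widely spread. Adh1 encodes an alcohol dehydrogenase that also oxidizes retinol. It had 156 UMIs in 102 control endocardial nuclei (10.4%) and 423 in 231 PD-1 inhibitor endocardial nuclei (21.9%), a log2 ratio of 1.32 (1.05 to 1.59), which ran from 1.19 to 1.51 over 21 alternatives. Adh6b, a gene of the same family, had 59 and 122 UMIs, at 0.92 (0.47 to 1.40). Both were endocardial genes by comparison with all other nuclei, where Adh1 had 19.8 and 35.6 CPM against 129 and 321. Ankrd1, a stretch-responsive gene of muscle, had the highest ratio, 1.90 (1.54 to 2.29), from 75 and 305 UMIs. However, 116 of the 305 lay in 1 nucleus, and without the highest nucleus of each group the ratio was 1.29. Among nuclei with more pan-endothelial UMIs than of each other type it was 0.41. Lsamp, an adhesion molecule gene, had 125 and 383 UMIs, at 1.49 (1.2 to 1.80), with 177 of the 383 in 1 nucleus, and its ratio turned to -0.30 when Npr3 was left out of the rule.

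Other genes among the 10 highest had fewer UMIs. Bola3, which takes part in iron-sulfur cluster assembly, had 28 and 87 UMIs, at 1.5 (0.89 to 2.19), the sialidase gene Neu1 27 and 81, at 1.45 (0.82 to 2.15), and the kinase gene Uhmk1 34 and 95, at 1.35 (0.78 to 1.97). Tipin, Tmem98, 1700016D06Rik and the peroxiredoxin gene Prdx4 had log2 ratios from 1.22 to 1.29. In these 7 genes no nucleus held more than 8 UMIs of a gene.

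**Figure D5:**
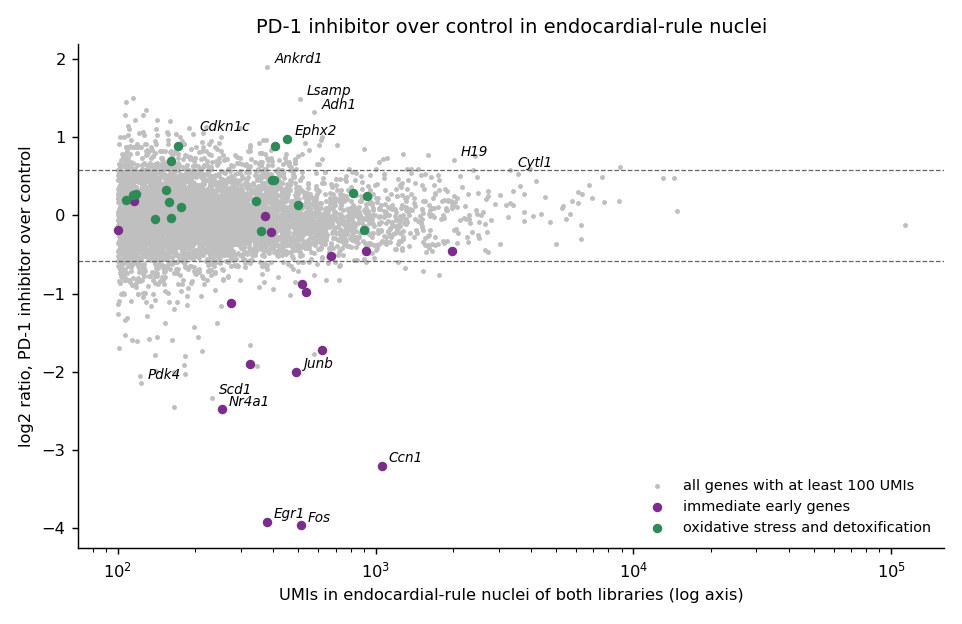
Log2 ratio of PD-1 inhibitor over control against UMIs of both groups (log axis) for 5830 genes in endocardial-rule nuclei, with immediate early genes in purple, oxidative stress and detoxification genes in green and dashed lines at 1.5-fold. The immediate early genes Fos, Egr1 and Ccn1 lay lowest, at -3.96 to -3.20, and Ankrd1 lay highest, at 1.90.

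Endocardial identity genes had ratios on both sides of 0. Of the 20 endocardial genes outside the rule 2 were over 1.5-fold higher and 0 lower, where 5.37% of all genes were higher and 4.46% lower. Their median log2 ratio was 0.03 (0.25 in all other nuclei). H19 was higher, with 597 and 976 CPM and a ratio of 0.71 on the log2 scale (0.58 to 0.84), and so was the BMP target Tmem100, with 118 and 191 and a log2 ratio of 0.70 (0.40 to 1.00). Cytl1, a cytokine-like gene, had 1046 and 1566 CPM, and its log2 ratio of 0.58 (0.48 to 0.68) lay just under the fold. The ratio of H19 ran from 0.62 to 0.76 and that of Cytl1 from 0.47 to 0.64 over 21 alternatives. In all other nuclei H19 had a ratio of 0.88 (0.71 to 1.06), with nuclei near the rule's threshold among them. Cdh11, Tmem108 and Gata6 were close to 0, at 0.00 (-0.11 to 0.11), -0.06 and 0.03.

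Imprinted genes were a list of their own. Of 10 with enough UMIs 2 were higher and 1 lower, with a median of 0.26, where 5.37% of all genes were higher and 4.46% lower. The cell cycle inhibitor gene Cdkn1c had 60 UMIs in control and 135 in PD-1 inhibitor endocardial nuclei, a log2 ratio of 1.04 (0.60 to 1.51). Kcnq1ot1, the noncoding RNA that silences Cdkn1c in cis on the paternal chromosome, had 1078 and 691 UMIs, and its log2 ratio was -0.76 (-0.90 to -0.62). Plagl1 had a ratio of 0.34 (0.18 to 0.50), which did not reach the fold.

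Genes of oxidative stress and detoxification were taken because the study measured reactive oxygen species in ECs. Of 20 with enough UMIs 4 were over 1.5-fold higher and 0 lower, with a median log2 ratio of 0.25 (0.36 in all other nuclei), where 5.37% of all genes were higher. That share varied with gene length, described below, and was 196 of 1166 among the shortest genes. The 4 were the epoxide hydrolase gene Ephx2, with 144 and 310 UMIs and 0.98 (0.70 to 1.28), Mgst1, a microsomal glutathione transferase, with 135 and 272 and 0.89 (0.59 to 1.2), and the peroxiredoxin genes Prdx5, at 0.89 (0.42 to 1.38), and Prdx2, at 0.70 (0.23 to 1.2). Prdx5 was at 0.54 among nuclei with more pan-endothelial UMIs than of each other type. The superoxide dismutase genes Sod1 and Sod2 had ratios of 0.18 (-0.14 to 0.49) and 0.11 (-0.33 to 0.56).

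The genes that the study followed in ECs gave small differences here. Tgfb1, the ligand TGF-beta 1, had 130 and 167 UMIs in endocardial nuclei, or 107 and 127 CPM, and its log2 ratio of 0.24 (-0.10 to 0.58) included 0. Tcf12, a basic helix-loop-helix factor, had 558 and 473 UMIs, and its log2 ratio was -0.36 (-0.54 to -0.18), and -0.32 (-0.38 to -0.25) in all other nuclei. Pdcd1, which encodes PD-1, had 1 UMI in control endocardial nuclei and 0 in PD-1 inhibitor endocardial nuclei. For 0 of 1053 nuclei, the share that 3 nuclei would make, 0.285%, was taken as a rough upper bound on nuclei with a UMI of the gene. It is not a Clopper-Pearson limit and sets no limit on nuclei that express the gene. The list of the mesenchymal side of endothelial-to-mesenchymal transition holds 17 genes, of which 10 had at least 100 UMIs. Of these 10, 0 were past the fold in either direction, with a median of -0.18 (0.12 in all other nuclei). Over all genes 5.37% were higher and 4.46% lower, so 0 of 10 lay near that share. The 10 include Col1a1 and Col3a1, which the rule reads. Nuclei in which the rule's fibroblast genes reached the endocardial sum were left out. These values therefore cannot show whether endothelial nuclei gained mesenchymal transcripts, which was not tested. Acta2, the gene of the alpha-SMA that the study stained, was under the minimum of UMIs. In that list Fn1, the fibronectin gene, had 403 and 272 CPM, at -0.57 (-0.77 to -0.37), and Vim, the vimentin gene, 1090 and 1208, at 0.15 (0.04 to 0.25).

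Signalling lists showed few members past the fold, and their shares are to be read against the 5.37% of all genes that were higher and the 4.46% that were lower. In the TGF-beta, activin and BMP pathway 2 of 25 were higher, Bmp4 at 0.72 (0.35 to 1.10), which was 0.46 without Nrg1 in the rule, and Tmem100, and 0 were lower. Of 13 VEGF, angiopoietin and TIE genes 2 were lower, Vegfa at -0.85 (-1.17 to -0.55) and the receptor gene Flt4, which the rule reads, at -0.82 (-1.33 to -0.33). The Vegfa call was lost with a rule sum of at least 5, where the ratio was -0.06, and without nuclei with adipocyte markers, where it was -0.45. Of 12 Notch genes 1 was lower, Notch2 at -0.66 (-1.11 to -0.22), which was -0.29 for the mean over nuclei. Of 14 natriuretic, endothelin and vasoactive genes 2 were higher. These were Ace, which encodes angiotensin-converting enzyme, at 0.81 (0.33 to 1.31), and Nppb, at 0.64 (0.10 to 1.2), with 26 of its 78 PD-1 inhibitor UMIs in 1 nucleus and a ratio of -0.23 for the mean over nuclei. In the neuregulin list 1 of 4 was lower, the receptor gene Erbb4, at -0.99 (-1.50 to -0.51), with 24 of its 55 PD-1 inhibitor UMIs in 1 nucleus and a ratio of -0.52 without Smoc1 in the rule. Among the transcription factors Sox18 was higher, at 0.61 (0.28 to 0.94), and Fli1 and Mef2c were lower, at -0.59 (-0.78 to -0.39) and -0.63 (-0.85 to -0.42). Sox18 and Fli1 lay close to the fold, and under some alternatives they were below it, Sox18 at 0.34 after thinning to 500 UMIs and Fli1 at -0.54 with a rule sum of at least 2. No member of the antigen presentation, interferon and checkpoint, haemostasis, junction and barrier or guidance lists was past the fold.

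The counts of the lists that follow are also to be read against the 5.37% of all genes that were higher and the 4.46% that were lower. Fatty acid genes divided between the directions. Of 14 with enough UMIs 2 were higher, Fabp5 with 455 and 685 CPM and a ratio of 0.59 (0.44 to 0.75) and the mitochondrial dehydrogenase gene Acadvl at 0.65 (0.25 to 1.07), and 3 were lower, with a median of 0.02. The 3 were Pparg, at -1.59 (-2.14 to -1.09), the lipase gene Lipe, at -1.56 (-2.15 to -1.02), and Acsl1, which activates fatty acids, at -0.82 (-1.17 to -0.47). For Pparg, 91 of 120 control UMIs lay in the 10 nuclei with adipocyte markers. Without nuclei with such markers Pparg had 29 and 20 UMIs, under the minimum. For Lipe, 1 nucleus held 19 of 104 control UMIs and 1 held 11 of 38 PD-1 inhibitor UMIs. The ratio of Acsl1 turned to 0.84 without Smoc1 in the rule, and that of Fabp5 was 0.48 without Npr3 in it. In the retinoid list Adh1 was the 1 of 6 past the fold. In the circadian list 1 of 9 was higher, Tef, a PAR bZIP factor, with 112 and 215 UMIs and a ratio of 0.82 (0.49 to 1.16). Markers of neighbouring cell types were mixed. Of 10 cardiomyocyte markers 2 were higher, Tnni3 at 0.74 (0.56 to 0.93) and Mb at 0.59 (0.43 to 0.75), with a list median of 0.39 (0.18 in all other nuclei). Among nuclei with more pan-endothelial UMIs than of each other type they were at 0.46 and 0.10 and did not pass. Of 7 fibroblast markers 2 were higher, Dcn at 0.60 (0.51 to 0.69), a gene the rule reads, and Lum at 0.60 (0.42 to 0.79), both under the fold in some alternatives, at 0.48 and 0.51 after thinning. The list median was -0.13 (0.23 in all other nuclei), and Col3a1 and Col1a2, which encode fibrillar collagen chains, were at -0.52 (-0.81 to -0.24) and -0.13 (-0.45 to 0.20). Col3a1 is also a gene the rule reads. The part of these transcripts in the other ratios was not tested.

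Gene length went with the ratio in endocardial nuclei and in all other nuclei. With the genes split by genomic span into 5 classes of 1166, the median log2 ratio was 0.23 in the shortest class (median span 6.90 kb) and -0.19 in the longest (168 kb), and it was 0.23 and -0.21 in all other nuclei. Of the 313 genes that were higher 196 lay in the shortest class, and of the 260 that were lower 104 lay in the longest. H19, Cytl1 and Cdkn1c span 2.62, 4.30 and 2.71 kb, and Fos and Ccn1, which were lower, span 3.38 and 3.01 kb. Of the oxidative stress and detoxification genes that were higher, Prdx5, Mgst1 and Ephx2 span 3.41, 16.4 and 40.1 kb. The part of gene length in these ratios was not tested.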

How the data were processed

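Whole hearts were made into 1 snRNA-seq library per group with the GEXSCOPE single nucleus kit. The authors deposited raw counts of UMIs, as whole numbers for each nucleus and gene. GRCm38 and mm10 are named in the submitters' processing notes, and the aligner, the counting software and the way barcodes were called as nuclei are not given in the sources used here. No barcode held fewer than 500 UMIs. The control library held 10197 barcodes and 13177525 UMIs, and the PD-1 inhibitor library 7967 and 10875248. Symbols given to more than 1 gene number 100 of 32589 genes.

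Endocardial nuclei were taken by the rule in both matrices. Capillary-rule and lymphatic-rule nuclei were taken by mirrored rules (their own sum of at least 3 and above every other sum), and valve-rule nuclei by a sum of Wnt9b and Hapln1 of at least 2. Within each set of nuclei the UMIs of a gene were added up and scaled to 1000000 UMIs of that set (CPM). For log2 ratios, 0.5 UMI was added to each sum. Past the fold means over 1.5-fold between groups with at least 100 UMIs in endocardial nuclei of both groups together, or over 2-fold in both groups between sets with at least 100 UMIs in both sets and groups together, and it is not a test. Shares have exact Clopper-Pearson intervals, sums exact Poisson intervals and log2 ratios exact intervals from the binomial distribution given the sum of both counts, all at 95% and for counting error only. The bound for Pdcd1 is instead the share that 3 nuclei would make. UMIs are not normalized for transcript length, so levels of different genes were not compared.

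Doublets were called per library with Scrublet in scanpy 1.11.5 and kept. GENCODE vM21 gave the gene spans (GRCm38), and RefSeq the promoter windows (GRCm38.p6). The ratios and shares were tested on simulated counts before use.

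The marker genes, the gene lists and the rule for genes to be named were chosen with earlier results of these data known. Named are the 7 markers, the 10 highest and 5 lowest genes against capillary-rule nuclei, the 10 highest against all other nuclei, the 10 highest and 10 lowest PD-1 inhibitor over control ratios, per list up to 5 genes with most UMIs and up to 3 with the largest ratio, and Tgfb1, Tcf12 and Pdcd1. Further members of lists, Sema3g and Gja5 among them, were named after their values were seen. Alternatives covered the rule, the filters, the scaling and the fold, and 3 of the 23 were chosen after seeing the data.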

Additional observations from a re-analysis of the deposited data

How the results depend on the processing

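Of the 23 alternatives, 20 were planned and 3 were chosen after seeing the data. The 3 left out endocardial nuclei with at least 3 adipocyte marker UMIs, kept only endocardial nuclei with more pan-endothelial UMIs than of each other cell type, or left out for each gene the nucleus with most of its UMIs in each group. The endocardial share ratio stayed above 1 under its 15 alternatives, from 1.23 among endocardial nuclei with more pan-endothelial UMIs to 1.49 with a rule sum of at least 5. Of 360 values of list medians 358 stayed within the interval of the main median. The exceptions were fatty acid handling, 0.36 with a rule sum of at least 5, and natriuretic, endothelin and vasoactive genes, 0.13 without Npr3 in the rule. The immediate early median ran from -1.41 to -0.93.

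Counts of genes moved with the minimum of UMIs and the fold by construction. Higher and lower genes numbered 116 and 111 after thinning to 500 UMIs, 665 and 534 at a minimum of 50 UMIs, 133 and 97 at 200 UMIs and 29 and 58 at 2-fold. Higher genes numbered 207 without Npr3 in the rule, and lower genes 162 among endocardial nuclei with more pan-endothelial UMIs. Both settings kept fewer nuclei, so fewer genes could reach 100 UMIs. Against capillary-rule nuclei 285 were higher and 167 lower after thinning, and 201 and 105 at 4-fold. Against all other nuclei 113 were higher and 619 lower at 4-fold. Of 3737 log2 ratios of named genes 143 left their counting interval, and 4 of genes past the fold changed sign, Acsl1 at 0.44 with at least 2 different rule markers and 0.84 without Smoc1 in the rule, Lsamp at -0.30 without Npr3 in the rule, and Nppb at -0.23 for the mean over nuclei. Their causes were not tested. No paired analysis was possible because each group is 1 library. No library could be left out for the same reason, and depth limits the ratios of genes near 100 UMIs.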
